A study of Homo sapiens with 4 samples.

Results

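Among the ac4C peaks that differed between shNC and shNAT10 FaDu cell lines, 525 lay in protein-coding genes and carried no region annotation other than exon, without a UTR, coding sequence (CDS) or codon class. They came from 461 genes and made up 18.7% of the 2807 differential peaks, or 19.8% of the 2657 differential peaks in protein-coding genes. The other protein-coding differential peaks were mainly 1567 peaks annotated as 3′-UTR and 541 annotated as CDS, and these classes are used for comparison below. The same exon-only annotation was also given to 139 peaks of other biotypes, of which 75 were antisense RNAs, 22 processed transcripts and 16 lincRNAs, and these were not members. All 525 peaks were chosen by the authors' own test of the difference between conditions, so that which condition a member favours is described below and was not tested.

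FaDu cells derive from a squamous carcinoma of the human hypopharynx, a tumour of the head and neck. The shNC cells carried a control short hairpin RNA and the shNAT10 cells a hairpin against NAT10. The study's methods describe lentiviral hairpins with puromycin selection, and which hairpin gave these libraries is not given in the sources used here. In acRIP-seq, total RNA is broken into short fragments, fragments with ac4C are captured with an anti-ac4C antibody (IP), and the IP is set against the RNA before capture (input). Each condition had 1 IP and 1 input library, 4 libraries in all, with no replicate. No value below therefore has an error between cultures, and intervals cover the sampling of peaks only. Library depth is unknown, since only peak tables and no read counts were used. The shNC list held 6403 peaks and the shNAT10 list 6417. The transcript of NAT10 itself carried 1 peak in each list, with a fold enrichment of 6.91 in shNC and 12 in shNAT10, which is an enrichment of IP over input and does not measure how much NAT10 RNA was left.

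NAT10 is the enzyme that writes N4-acetylcytidine (ac4C) in human RNA. The mark is long known in 18S ribosomal RNA and in some tRNAs, where it is placed with the help of adaptor proteins or small RNAs. In mRNA it has been linked to transcript stability and to translation. Protein-coding genes also have annotated transcripts without a reading frame, such as those that keep an intron, and the exons of such transcripts have no CDS or UTR. Whether a member was annotated through a transcript of this kind is not recorded in the table, so exon only describes an annotation and not a part of the mature mRNA.

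The table lists where the 12-nt motif CXXCXXCXXCXX occurs in each peak, with 4 cytidines spaced 3 nt apart and X any base. Peak sequences were not analysed here as a whole, but 9 listed sites in members fell within RefSeq promoter windows (GRCh38.p14). The letters there matched the motif in 9 of 9 cases, and at 31 of 33 such sites over all differential peaks. The coordinate offset of the listed sites had been set on sites in these windows, so the match is not an independent check. Of the 9 sites in members, 5 from 3 members are printed to show what a motif site looks like within an exon-only peak. Each is given 5′ to 3′ on the strand of the gene with 9 bases on either side, and capitals mark the 4 cytidines of the motif.
RPS28, chr19:8321490-8321519, plus strand: cacgtgactCctCtcCgcCagaccgccgcc
RPL27, chr17:42999950-42999979, plus strand: ctcagatcgCccCtaCagCcatgctctggt
RPL27, chr17:42999983-43000012, plus strand: tggaattgaCcgCtaCccCcgcaaagtgac
FAAP20, chr1:2189643-2189672, minus strand: ggacacgctCtcCccCgcCagcagccccgc
FAAP20, chr1:2189590-2189619, minus strand: cccgcctctCggCtcCccCgcatgcgcatt
RPS28 and RPL27 encode ribosomal proteins, and FAAP20 encodes a subunit of the Fanconi anaemia core complex. The RPS28 member had a fold enrichment of 19.3 in shNC and 17.1 in shNAT10, and the RPL27 member 16 and 10.8. The FAAP20 member, with 5 listed sites, had 24.2 in shNC and 8.45 in shNAT10. All 3 members were thus present in both lists, and the FAAP20 member was 2.86-fold lower in shNAT10.

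To describe direction without the authors' comparison, each member was matched to the peaks of each list that shared at least 1 bp of exonic sequence on the same strand. By this rule 137 members (26.1%, 95% Wilson interval 22.5 to 30) overlapped a shNC peak only, 133 (25.3%, 21.8 to 29.2) a shNAT10 peak only, and 255 (48.6%, 44.3 to 52.8) a peak in both lists. Over all protein-coding differential peaks these shares were 32.3%, 27.2% and 40.5%. Nearly equal numbers of members were thus listed in 1 condition or the other. Of the 270 members listed in 1 condition, 50.7% (44.8 to 56.7) were in shNC, against 56.3% in the CDS class and 54.2% in the 3′-UTR class. The differences were -5.59 percentage points (95% Newcombe interval -13.7 to 2.59) from CDS and -3.49 points (-10.2 to 3.19) from 3′-UTR, so that no lean to either condition was resolved between the classes. Members in both lists exceeded the 3′-UTR share of 36.7% by 11.9 points (6.99 to 16.8) and the CDS share of 44.5% by 4.02 points (-1.96 to 9.97). Without the genes of cytosolic ribosomal proteins, a group described further on, the difference from 3′-UTR was 7.4 points (2.38 to 12.5). Peak length moved with this share, since members in both lists had a median of 360 nt of exonic sequence against 210 nt for shNC only and 181 nt for shNAT10 only. Among peaks of 180 to 240 nt, 22.5% of members were in both lists, against 18.2% of CDS and 10.9% of 3′-UTR peaks.

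**Figure D1:**
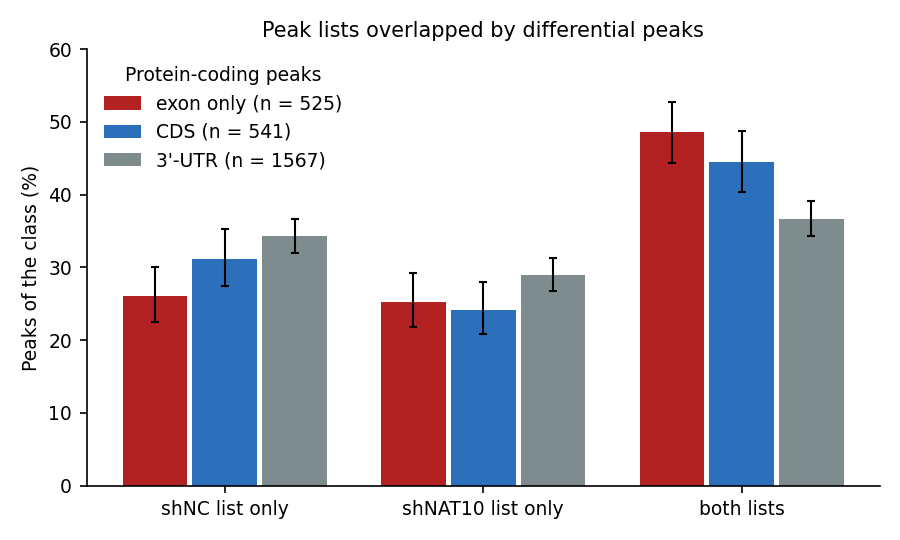
Share of protein-coding differential peaks (y axis, percent of the class) that overlapped a peak of the shNC list only, of the shNAT10 list only or of both lists, for the exon-only (n = 525), CDS (n = 541) and 3′-UTR (n = 1567) classes. Bars are shares and lines are 95% Wilson intervals, with exon-only peaks at 26.1%, 25.3% and 48.6%.

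The region of a member is not always its own. There were 41 members (7.81%) over a list peak on the opposite strand, against 6.28% of CDS and 9.96% of 3′-UTR peaks. In 4 of the 31 such members in shNC and in 7 of the 28 in shNAT10, both strands were listed with the same fold enrichment, so that their reads could not be assigned to 1 gene. A further limit is that 13 members (2.48%) overlapped a differential peak of another gene on the same strand. With the opposite-strand members left out, 127 members were in shNC only, 124 in shNAT10 only and 233 in both lists.

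Members listed in shNC only had a median fold enrichment of 12.4 (2.4 to 229). The highest value, 229, belonged to TIMM17A (chr1:201969530-201969857), a subunit of the channel that imports proteins into the mitochondrial matrix. SYNE4 followed at 124 (chr19:36003366-36005357), which encodes a nesprin that links the nucleus to kinesin. C1orf159 had 123 (chr1:1081848-1082058). XAB2, a splicing factor that also takes part in transcription-coupled repair, had 122 (chr19:7619555-7620063), and AC073111.5 had 102. TIMM17A stood well above the others, and the next 3 values lay within 2 units of each other.

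Members listed in shNAT10 only had a median fold enrichment of 15.2 (2.28 to 194). SAFB, an RNA- and DNA-binding protein of the nuclear scaffold, led with 194 (chr19:5667874-5668418). It was followed by SLC2A6, a glucose transporter of the GLUT family, at 86.2 (chr9:133471185-133471425) and by SNX21, a sorting nexin of endosomes, at 76.9 (chr20:45841422-45841691). ZBTB48, a zinc finger protein that binds telomeric repeats, had 73.1 and THAP12 had 70.1. TRMU, which thiolates mitochondrial tRNAs, had 57.6 (chr22:46357040-46357280). As in shNC, 1 gene stood apart at the top and the next values lay close together.

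For the 255 members in both lists, the fold enrichment was 15.9 in shNC (median, 95% interval 13.5 to 19.3) and 14.7 in shNAT10 (11.6 to 18.1). The median log2 ratio of shNAT10 over shNC was -0.29 (-0.45 to -0.13). Over the 3308 shNC list peaks that overlapped a shNAT10 list peak, differential or not, it was -0.05. Over the 1076 protein-coding differential peaks in both lists it was -0.28, with -0.26 in the CDS class and -0.22 in the 3′-UTR class. At least 2-fold lower values in shNAT10 were found for 77 of the 255 members (30.2%, 24.9 to 36.1) and at least 2-fold higher values for 57 (22.4%, 17.7 to 27.9). The same limits were passed by 24.1% and 22.7% of the 3308 overlapping list peaks. Of the 1076 protein-coding differential peaks in both lists, 33.4% were at least 2-fold lower and 29.3% at least 2-fold higher. Because the members had been selected on a difference between conditions, nothing was read from either share. The remaining 121 members in both lists were within 2-fold by this ratio although all were in the table of differential peaks. The ratio compares the enrichments of whole list peaks, which can be wider than the member.

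Members past 2-fold either way were 52.5% of those in both lists, close to 53.9% in the CDS class (difference -1.39 points, -10.1 to 7.34) and below 71% in the 3′-UTR class (-18.4 points, -25.5 to -11.2). In size, the median absolute log2 ratio was 1.09 in the exon-only class, 1.09 in CDS and 1.60 in 3′-UTR. Among these selected peaks, exon-only members in both lists thus had smaller absolute log2 ratios than 3′-UTR peaks. No difference from CDS peaks was resolved. Peaks of every class had been selected on a difference between conditions, so whether the classes differ in their response was not tested. Without cytosolic ribosomal protein genes the share past 2-fold was 59.1% for exon-only members, 56.8% for CDS and 71.2% for 3′-UTR.

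The largest fall was in MRPL18, a protein of the large mitochondrial ribosomal subunit. Its fold enrichment was 88.4 in shNC and 2.93 in shNAT10, a 30.2-fold lower value (chr6:159798197-159798376). SLC39A1, a zinc importer of the plasma membrane, had 99.8 in shNC and 7.18 in shNAT10. EIF4A1, the RNA helicase of the cap-binding complex, had 26.1 in shNC and 1.88 in shNAT10, in a region that also carried a peak assigned to AC016876.2. SNRNP40, a protein of the U5 small nuclear ribonucleoprotein, had 48.3 and 3.56. DMKN, a secreted protein of stratified epithelia, had 79.9 and 7.45. All 5 were at least 10.7-fold lower in shNAT10.

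The largest rise was in PFDN5, a subunit of the prefoldin chaperone, from 4.14 in shNC to 111 in shNAT10, a 26.8-fold higher value (chr12:53298461-53299450). A second PFDN5 member just upstream (chr12:53297803-53298341) went the other way. It had 35.2 in shNC and 11.9 in shNAT10, a 2.96-fold lower value. SSR4, a subunit of the translocon-associated protein complex, had 14.5 in shNC and 168 in shNAT10. MRPL28, another protein of the large mitochondrial ribosomal subunit, had 12.3 and 130. ELAC2, which trims the 3′ ends of tRNA precursors, had 2.96 and 26.3. ANAPC11, the RING subunit of the anaphase-promoting complex, had 7.29 and 61.3. The mitochondrial ribosomal genes MRPL18 and MRPL28 were thus at opposite ends of the members in both lists.

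**Figure D2:**
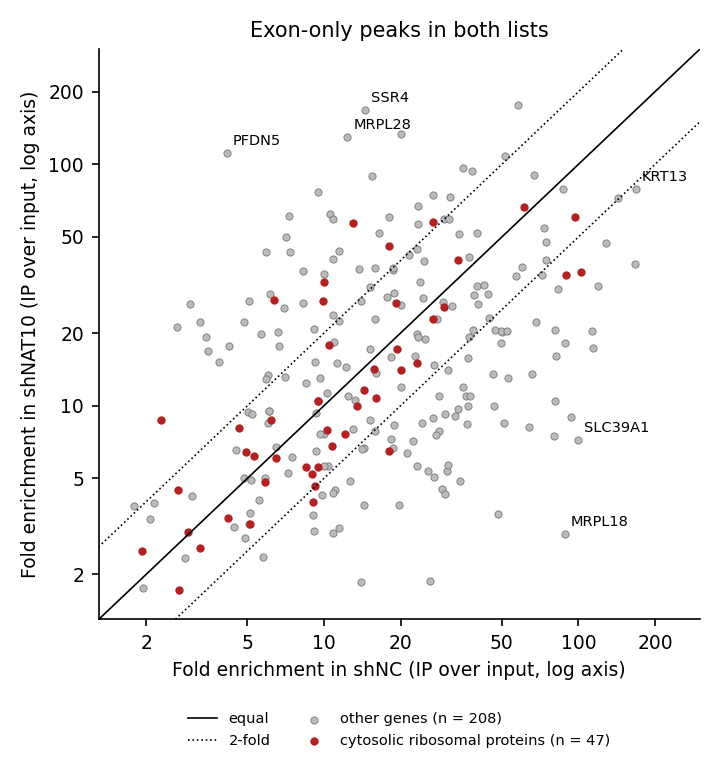
Fold enrichment of IP over input in shNC (x axis) and shNAT10 (y axis), both on log axes, for the 255 exon-only members in both lists. Each point is 1 peak, red points are the 47 peaks of cytosolic ribosomal proteins and grey points the 208 others. The solid line marks equal values and dotted lines a 2-fold ratio. MRPL18 (88.4 and 2.93) and PFDN5 (4.14 and 111) lie farthest from the line of equal values.

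Fold enrichment had close medians in the 2 conditions. The 392 members with a shNC peak had a median of 14.5 (12.4 to 17.3), and the 388 with a shNAT10 peak a median of 15 (13 to 17.5). The CDS class had 12.5 and 12, and the 3′-UTR class 16.7 and 17.4. The intervals of members overlapped those of both classes in each condition.

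Members differed from both classes in structure. CDS and 3′-UTR are themselves parts of a transcript, so that the structure of a peak is not independent of its class. An exonic block is a stretch of a peak without an intron, so that a peak with more than 1 block crosses a splice junction. There were 364 members with 1 block, 115 with 2, 36 with 3 and 10 with 4, and 30.7% (26.9 to 34.7) had more than 1. This share was 66.7% in the CDS class, a difference of -36.1 points (-41.5 to -30.3), and 11.3% in the 3′-UTR class, a difference of 19.4 points (15.2 to 23.7). Exon-only members thus lay between the other classes. The longest spans in the genome were those of WDR70 at 25590 nt for 150 nt of exonic sequence, RPL22 at 11096 nt for 389 nt and EIF3L at 10774 nt for 807 nt. EIF3L, a subunit of the translation initiation factor eIF3, overlapped peaks assigned to AL022311.1. With 4 blocks each, the EIF3G member had 9.45 in shNC and 76.9 in shNAT10, and that of MXD3, a partner of MAX, was listed in shNAT10 only at 32.5. The EIF3G region also carried peaks on the opposite strand, with fold enrichments of 46.3 in shNC and 329 in shNAT10. Exonic length had a median of 267 nt (241 to 270) and a range of 119 to 955 nt, against 240 nt in CDS and 241 nt in 3′-UTR.

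Members lay towards the 3′ end of their genes, as did protein-coding differential peaks as a whole. For the 518 members (98.7%) that could be placed on the RefSeq gene of the same symbol, the midpoint was at 93% of the gene from its 5′ end (median, 91.9 to 94.5). In the CDS class the median was 83.5% and in the 3′-UTR class 97.2%. Over all protein-coding differential peaks it was 95.2% (94.6 to 95.8), so that members lay slightly less far towards the 3′ end. The last 10% of the gene held 58.9% of members, 20 points (13.9 to 25.9) more than of CDS peaks and 16.8 points fewer (-16.8, -21.6 to -12.1) than of 3′-UTR peaks. Over all protein-coding differential peaks the last 10% held 64.7%. The first 50% held 46 members (8.88%), against 7.28% of all protein-coding differential peaks. In nucleotides the median distance to the 3′ end was 614, against 1896 in CDS and 518 in 3′-UTR. The genes themselves were shorter, with a median of 11144 nt (9676 to 12352) against 15119 nt (13460 to 17136) in CDS and 24237 nt (22593 to 26252) in 3′-UTR. Percent of gene length counts introns and therefore does not give a position in the mRNA.

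**Figure D3:**
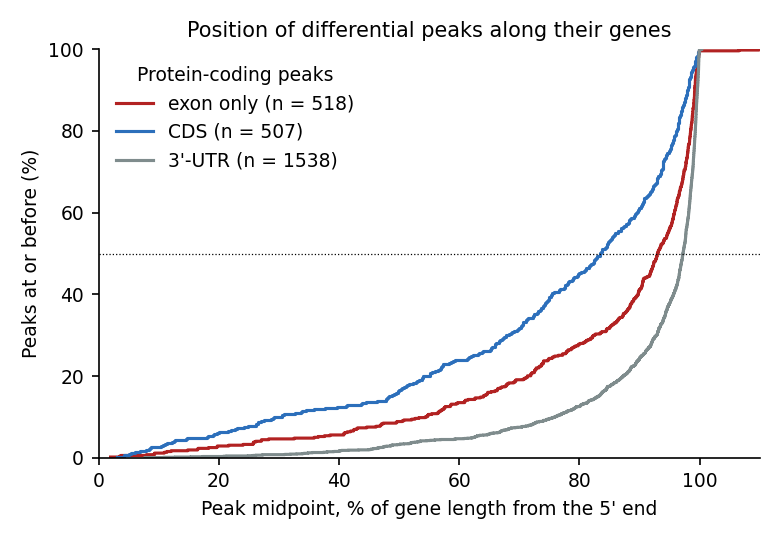
Cumulative share of protein-coding differential peaks (y axis, percent) by the position of the peak midpoint in its gene (x axis, percent of gene length from the 5′ end) for exon-only (n = 518), CDS (n = 507) and 3′-UTR (n = 1538) peaks. The dotted line marks the median, which is 93% for exon-only, 83.5% for CDS and 97.2% for 3′-UTR peaks.

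At least 1 motif site was listed in 334 members (63.6%, 59.4 to 67.6). The share was 68.8% in the CDS class (difference -5.14 points, -10.8 to 0.535) and 56.6% in the 3′-UTR class (7.01 points, 2.16 to 11.7). Some listed sites lay in introns between the blocks of a peak, namely 61 of the 929 sites in members, and 17 members had sites of this kind only. SYNE4 and TBRG4, with 4 listed sites each, and MXD3, with 3, had 0 sites in their exonic blocks. With only exonic sites counted, the shares were 60.4% in the exon-only, 60.8% in the CDS and 55.1% in the 3′-UTR class, and the difference from CDS was -0.432 points (-6.28 to 5.42). Per 100 nt of exonic sequence there were 0.544 sites in members, 0.528 in CDS and 0.444 in 3′-UTR peaks. Among peaks with 1 block the order of members and CDS was reversed, with 0.565, 0.702 and 0.452. A site was listed in 60.7% of 1-block members and 68.9% of 1-block CDS peaks. The difference was -8.17 points (-16.3 to 0.44). Listed sites never overlapped, with a smallest distance of 12 nt among 2646 neighbouring pairs, so that runs of C-rich repeats were counted in steps.

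No difference between the directions of members was resolved in their motif sites. An exonic site was present in 51.8% (43.5 to 60) of those in shNC only and in 53.4% (44.9 to 61.6) of those in shNAT10 only, a difference of -1.56 points (-13.3 to 10.2). The share was 68.6% (62.7 to 74) in members of both lists, which were longer, and the density per 100 nt was 0.511, 0.488 and 0.57 in the same order. The members richest in the motif were SERINC2 with 15 sites, and EPN1 and QTRT1 with 13 each. SERINC2 had a fold enrichment of 23.1 in shNC and 19.9 in shNAT10. EPN1, an endocytic adaptor, had 5.14 and 4.9. QTRT1, a subunit of the enzyme that puts queuine into tRNA, had 27 and 5.07. The richest 3 members thus held 1 peak that was 5.33-fold lower in shNAT10 and 2 that were within 1.16-fold.

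Gene groups were defined by patterns of gene symbols, so that their counts hold for the matched symbols and leave out members of like function under other symbols. Each group is described by its count and its share, beside 19.8% exon-only peaks over all protein-coding differential peaks. Genes of translation, tRNA modification and the ribosome held 84 members in 63 genes, or 39.3% of the 214 differential peaks of the group. Of these, 11 were in shNC only, 10 in shNAT10 only and 63 in both lists, where 9 were at least 2-fold lower and 15 at least 2-fold higher in shNAT10. MRPS5, of the small mitochondrial ribosomal subunit, had 113 in shNC and 20.4 in shNAT10. RPLP1, of the ribosomal stalk, had 97.3 and 60.8. The median log2 ratio of the group was -0.14, against -0.29 for all members in both lists.

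Cytosolic ribosomal proteins, a subset named after the table was read, gave 52 members in 35 genes. This was 59.8% of their 87 differential peaks, beside 32 CDS and 3 3′-UTR peaks. Proteins of the large subunit accounted for 28 members and those of the small subunit for 24. Both lists held 47 of the 52 (90.4%), compared with 44% of the 473 other members. At least 2-fold lower values in shNAT10 were found for 4 of the 47 and at least 2-fold higher values for 7, so that 23.4% passed 2-fold, compared with 59.1% of the other members in both lists. Their fold enrichments were lower than those of other members, with medians of 9.9 in shNC and 8.72 in shNAT10 against 15.9 and 16.1. Their midpoint lay at 58.6% of the gene (median), well before that of all members. Ribosomal protein genes have many near-identical pseudogenes, and how reads that align to several places were treated is not given in the sources used here, so these counts are uncertain.

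The lower ribosomal members were RPS15A, with 89.3 in shNC and 34.8 in shNAT10, RPS25, with 102 and 35.9, RPL18, with 9.03 and 3.99, and RPS7, with 18 and 6.48. The other RPL18 member had 33.5 in shNC and 40 in shNAT10. One of the 7 higher members was in RPL28, with 13 in shNC and 57 in shNAT10, while the other RPL28 member had 5.84 and 4.82. The RPS25 region also carried a peak on the opposite strand in shNC, at 24.9. RPS7 held members past 2-fold in both directions. It had 3 members, at 24%, 44.6% and 87.6% of the gene, with 10.7, 6.38 and 18 in shNC and 6.83, 27.5 and 6.48 in shNAT10. The middle one was thus 4.31-fold higher in shNAT10 and the last 2.78-fold lower. RPL24 had 60.9, 26.7 and 9.25 in shNC and 66.4, 57.8 and 4.63 in shNAT10, counted from its 3′ end. RPL13A had 4 members, of which 1 was in shNAT10 only at 2.28. The other 3 had 6.21, 2.29 and 12.1 in shNC and 8.72, 8.72 and 7.61 in shNAT10, where the first and second of these share 1 shNAT10 list peak. RPS2 had 23.3 and 15 at its 3′-most member, 4.21 and 3.43 at the next, and the last in shNAT10 only at 3.72.

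**Figure D4:**
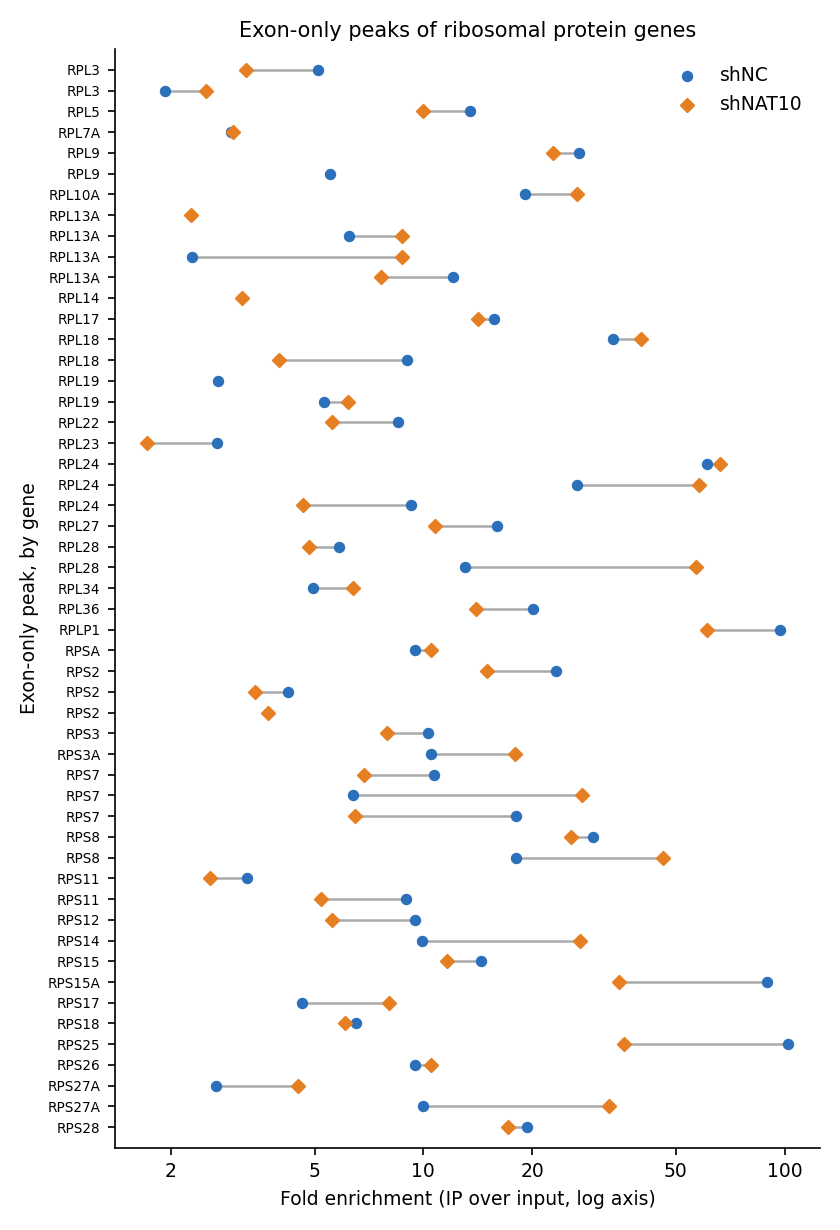
Fold enrichment of IP over input (x axis, log scale) of the 52 exon-only peaks of cytosolic ribosomal protein genes, 1 row for each peak, in shNC (blue circles) and shNAT10 (orange diamonds). Grey lines join the conditions for the 47 peaks in both lists, and a row with 1 symbol is a peak listed in 1 condition. Most lines are short, and 4 peaks were at least 2-fold lower and 7 at least 2-fold higher in shNAT10.

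Genes of splicing and mRNA processing held 31 members in 23 genes (26.1% of 119 differential peaks), with 11 in shNC only, 9 in shNAT10 only and 11 in both lists, of which 4 were at least 2-fold lower and 2 at least 2-fold higher in shNAT10. The lower ones included SNRNP40, of the U5 snRNP, with 48.3 in shNC and 3.56 in shNAT10. An exonic motif site was present in 7 of the 31 (22.6%), against 60.4% of all members. HNRNPA2B1, a nuclear RNA-binding protein of the hnRNP family, had 4 members and no listed site. From its 3′ end, the first was in shNC only at 21.4, the second had 24.8 in shNC and 39.6 in shNAT10, the third was in shNC only at 6.72 and the fourth in shNAT10 only at 4.06. HNRNPH1, of the same family, had 3 members, with 80.8 in shNC and 10.5 in shNAT10 at the 3′ end, then 1 in shNAT10 only at 27.9 and 1 in shNC only at 10.1. LSM8, of the ring that binds U6 RNA, had 35.3 and 96.3. EXOSC8, of the RNA exosome, had 38 and 93.9, over a peak of the opposite strand at 15.2 in shNC. The core spliceosome protein SNRPE had 67 and 90.6. Both directions were thus present within this group and within single genes of it.

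Genes of mitochondrial respiration and import gave 19 members (28.8% of 66), with 1 in shNC only, 4 in shNAT10 only and 14 in both lists, where 4 passed 2-fold in each direction. COX4I1, a subunit of cytochrome c oxidase, had 57.9 in shNC and 176 in shNAT10, and ATP5H, a subunit of ATP synthase, had 64.2 and 8.17. COX6A1, also of cytochrome c oxidase, had 29.7 and 59.2. Transporters and channels gave 23 members (27.7% of 83), a pattern that also takes in the ATP synthase genes. Of the 23, 6 were in shNC only, 6 in shNAT10 only and 11 in both lists. Those 11 comprised 6 at least 2-fold lower in shNAT10, 4 at least 2-fold higher and 1 within 2-fold. Over all members in both lists, 30.2% were at least 2-fold lower and 22.4% at least 2-fold higher. SLC39A1 was among the lower ones, as was the scramblase family member ANO9, with 88.4 in shNC and 18.2 in shNAT10. SLC39A4, another zinc importer, was in shNC only at 73.9, and SLC2A6 was in shNAT10 only at 86.2.

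The ubiquitin system and proteolysis gave 23 members (26.7% of 86). Of the 23, 5 were in shNC only, 7 in shNAT10 only and 11 in both lists. Among those 11, 6 were at least 2-fold lower and 2 at least 2-fold higher in shNAT10, with a median log2 ratio of -1.14. Over all members in both lists, 30.2% were at least 2-fold lower and 22.4% at least 2-fold higher. PSMC4, an ATPase of the proteasome base, had 49.6 in shNC and 18.1 in shNAT10. PSMA7, of the proteasome core, had 30.8 and 14, and COPS6, of the COP9 signalosome, had 29.3 and 26.8. The ubiquitin ligase TRIM56 was in shNC only at 35.2. Small GTPases and vesicle traffic gave 17 members (15.3% of 111), with 6 in shNC only, 3 in shNAT10 only and 8 in both lists. Among those 8, 4 were at least 2-fold lower and 1 at least 2-fold higher in shNAT10. COPG1, a coat protein of Golgi vesicles, had 119 and 31.4, and the GTPase RAB13 had 71.8 and 34.8. SNX21 was in shNAT10 only at 76.9. SNX22 had 128 and 47.3, over a peak of the opposite strand at 90.5 in shNC and 47.4 in shNAT10.

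The symbol pattern for kinases and phosphatases matched 10 members (14.3% of 70), of which 0 were in shNC only, 5 in shNAT10 only and 5 in both lists, with 3 of these at least 2-fold higher in shNAT10 and none 2-fold lower. Each of these 10 held an exonic motif site. The pattern left out the kinases GRK2, with 10.8 in shNC and 4.36 in shNAT10 (2.48-fold lower), and IKBKB, in shNAT10 only at 47.3 with 0 motif sites. It also left out the phosphohistidine phosphatase PHPT1, with 2 members in shNC only at 9.32 and 80.8. Among the matched members, DUSP5, a nuclear phosphatase of ERK, was in shNAT10 only at 54.9, as was EPHB4, an ephrin receptor, at 39.2. RPS6KB2, a kinase of ribosomal protein S6, had 10 in shNC and 35.1 in shNAT10, and PPP1CA, a catalytic subunit of protein phosphatase 1, had 44.4 and 23. Both of these regions also had list peaks on the opposite strand. The counts of this group therefore describe the matched symbols and give no direction for kinases and phosphatases as a whole.

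The other groups held few members. Adhesion, keratin and matrix genes gave 9 (17.3% of 52). Their highest values were in KRT13, a keratin of stratified epithelium, with 168 in shNC and 78.7 in shNAT10, and in KRT7, a keratin of simple epithelium, with 87.3 and 79. The KRT13 region was listed on the opposite strand with the same 2 values. KRT18 had 40.1 and 31.4. Chromatin genes gave 7 members (12.7% of 55), among them the histone variant gene H2AFZ with 143 in shNC and 72.6 in shNAT10 and the nucleosome-binding HMGN1 with 26.7 and 74.4. The 2 H2AFX members overlapped each other. Cell cycle, replication and repair gave 7 members (9.59% of 73) and zinc finger factors 3 (8.33% of 36). All members of both these groups held an exonic motif site. ZNF467 had 51.1 in shNC and 8.45 in shNAT10, ZNF444 had 52.5 and 20.3, and ZBTB48 was in shNAT10 only. Immune receptors and signalling gave 6 (14% of 43), with CD81 at 15.2 and 8.75 and the Fn14 receptor gene TNFRSF12A in shNAT10 only at 8.9. Metabolism gave 10 (17.2% of 58), among them PHGDH, the first enzyme of serine synthesis, with 19.7 and 3.87, AKR1B1, an aldose reductase, with 23.2 and 5.63, and PFKL, the liver-type phosphofructokinase, with 3.45 and 19.3.

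**Figure D5:**
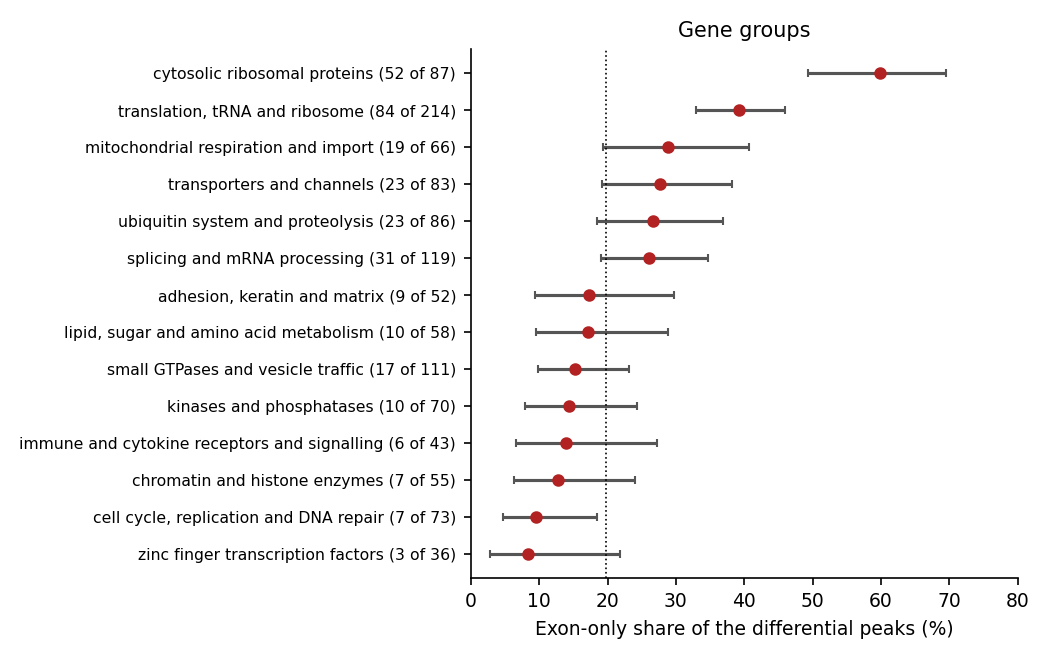
Exon-only share of the protein-coding differential peaks of each gene group (x axis, percent). Points are shares and lines are 95% Wilson intervals, counts are given beside each name, and the dotted line is the share over all protein-coding differential peaks (19.8%). Cytosolic ribosomal proteins, a subset of the translation group, are at 59.8% and zinc finger transcription factors at 8.33%.

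Several differential peaks in 1 gene were found for 123 members (23.4%, 20 to 27.2), against 30.3% of CDS and 18.6% of 3′-UTR peaks. In 53 genes there were 2 or more members, in 9 genes 3 or more, and in 2 genes (HNRNPA2B1 and RPL13A) 4. Of the 59 genes with a member and a further differential peak, only 3 also had a CDS peak and 3 a 3′-UTR peak, so that further peaks were nearly all exon only as well. In 11 genes, 1 member was in shNC only and another in shNAT10 only. No such count is given here for the CDS and 3′-UTR classes, so it does not set members apart from them. EWSR1, an RNA-binding protein, had a member in shNC only at 46.3 at its 3′ end (chr22:29300286-29300525) and one in shNAT10 only at 10.6 further upstream (chr22:29296308-29298789). ACAA1, a peroxisomal thiolase, had one in shNC only at 44.2, with the same value on the opposite strand, and one in shNAT10 only at 6.62. DDIT3, the stress-induced transcription factor CHOP, had one in shNC only at 28.3 and a pair in shNAT10 only, both at 49 from 1 list peak. The remaining 8 genes were HNRNPH1, HNRNPA2B1, ATP6V0B, TMEM184B, ZFYVE19, CARS2, CCM2 and CALM3. HNRNPH1 and HNRNPA2B1 each also had a member in both lists. In ATP6V1B2, a subunit of the proton pump of lysosomes, all 3 members were higher or listed in shNAT10 only, at 6.18, 12.7 and 16.9, the last with 3.51 in shNC. In NOP53, a factor of large ribosomal subunit assembly, 2 members were in shNC only, at 7.02 and 28.1, and the third had 4.87 in shNC and 2.82 in shNAT10.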

How the data were processed

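acRIP-seq was available for shNC and shNAT10 FaDu cells, with 1 IP and 1 input library each. Sequencing and analysis were done by a company, and the submitters' processing notes name cutadapt 2.5, HISAT2 2.1.0, HOMER 4.10.4, featureCounts 1.6.3 and GRCh38. The peak caller, its thresholds and the strand setting are not given in the sources used here. The deposited peak list of each condition gives a linear ratio of IP to input (the fold enrichment), a p-value and the log10 of its FDR (used as a score). The largest deposited p-value was 0.046 in shNC and 0.043 in shNAT10. Lists were assigned to conditions by a prefix shared with the titles of the libraries. The deposited table of differential peaks, which by its title holds significant differences, gives a region class, a gene and the number and place of motif sites (a score). Its columns of the comparison of conditions (log2 fold change, p-value and FDR) were not used.

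Members were matched to list peaks of the same strand by exonic overlap of at least 1 bp, with the same gene first and then the longest overlap. Where a list peak matched, its fold enrichment was taken. Wilson and Newcombe intervals (95%) were used for shares and order-statistic intervals for medians. No p-value was computed, since there was no replicate. Sequencing depth is unknown, and the intervals cover the sampling of peaks only. Gene positions came from RefSeq (GRCh38.p14), matched by symbol or synonym, and coordinates are counted from 1. Sequences are from RefSeq. The code was tested on simulated data.

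The members and gene lists were chosen with earlier results of these data known, and the cytosolic ribosomal proteins after the table was read. Named genes were the 5 highest fold enrichments of each 1-condition set, the 5 largest ratios each way, the 3 members with most motif sites, most blocks and longest spans, genes with 3 or more members, up to 5 genes with members each way, up to 4 members per group, and C1orf159, EWSR1 and TRMU. FAAP20, GRK2, IKBKB, PHPT1, SNRNP40, RPL18, RPL28 and the other genes with members each way were named after their values were seen. The same holds for RPL27 and RPS28 (sequences) and TBRG4 (motif sites outside blocks). Alternatives were other overlap, enrichment and FDR limits, peaks with 1 block, genes counted once and leaving out overlapping peaks, and, chosen after seeing the data, exonic sites only and leaving out ribosomal proteins or opposite-strand peaks. The work used Python 3.11.15 (pandas 2.3.3, numpy 2.4.6, matplotlib 3.10.9, scipy 1.17.1).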

Additional observations from a re-analysis of the deposited data

How the results depend on the processing

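Of 98 alternative values, 87 stayed within the interval of the reported value (within 1.5 times for counts and for differences of medians, which have no interval). The difference from CDS in the share past 2-fold, -1.39 points, changed sign to 1.59 at a 1.5-fold limit and 2.33 without cytosolic ribosomal proteins. These were the only 2 differences to change sign, and both values lay within the interval of the reported one, which includes 0. Among peaks of 180 to 240 nt, the motif share of members exceeded that of 3′-UTR peaks by 14.9 points. At a 1.5-fold limit the share past the limit was 10.8 points lower than in 3′-UTR peaks (-10.8), and at 4-fold 28 members were lower and 24 higher in shNAT10. For peaks with 1 block, the median length was 240 nt and the median position 95.8%, -1.9 points from 3′-UTR peaks against -4.24 as reported. The median position was 94.8% (-2.67 points from 3′-UTR) in genes with 1 differential peak and 94.6% (-2.69) without cytosolic ribosomal proteins. In all 11 the cause was not tested. No paired analysis was possible because a condition holds a single IP and a single input. With no replicate and unknown depth, a peak absent from a list may have been missed there.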
